A study of Mus musculus with 150 samples.

Results

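Hairy-skin sensory neurons of mouse pups 5 days after birth were compared with those of pups 4 days after birth. The cells were all those labelled hairy on plate 2, the only plate with hairy cells of both ages, and they number 35 of the 150 cells in the series and 35 of its 45 hairy cells. Each cell is 1 sample, a somatosensory neuron from a CD1 mouse, an outbred strain. The labels name no genotype, treatment or sex for these groups, and the sources used here do not say by what method a cell was called hairy or glabrous. Litters K (4 cells) and P_Q (15 cells) were of postnatal day 4, and litters L (5 cells), M (7 cells) and O (4 cells) of postnatal day 5. Age belongs to the litter, so the litter was the replicate, with 3 litters against 2 and counts summed over the cells of a litter. Of the 35 cells 33 were in library 5, and 2 cells of K were in library 4. Age is thus tied to which litters were taken, and an effect of age and a difference between litters cannot be told apart beyond the spread among these 5 litters.

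Hairy skin is supplied by several kinds of sensory neuron. A-fibre low-threshold mechanoreceptors have myelinated axons and detect hair movement and light touch, C-fibre low-threshold mechanoreceptors have thin unmyelinated axons and respond to slow stroking, and peptidergic nociceptors release neuropeptides such as CGRP and substance P and respond to painful heat and pressure. In the first postnatal days these neurons are still maturing, and their endings are forming around hair follicles and in the epidermis.

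The shallowest cell had 519031 counts in all, the deepest 881575 and the median cell 683360, and the litter sums held 2598640 to 9974670 counts. A median of 13666 genes was detected per cell, and litter means of total counts, detected genes and mitochondrial share overlapped between the ages. In 4 cells, 3 of P_Q and 1 of O, over 10% of counts came from mitochondrial genes. The lowest of the 35 cells in detected genes was 1 of these P_Q cells, with 4360 genes and 41.2% mitochondrial counts. Piezo2, the main touch-sensing ion channel, was at or over 100 CPM (counts per fixed total, the gene's count scaled to the same total in every cell) in 16 of the 19 day-4 cells and 14 of the 16 day-5 cells. This channel of sensory neurons was thus present in most cells of both ages, and RNA of other cells was present too. The litter mean of the summed CPM of 8 myelinating Schwann cell markers was 3230 in K, 4511 in P_Q, 3433 in L, 6207 in M and 12639 in O. The O value rests on 1 cell with 39044, the cell of O with over 10% mitochondrial counts, and the median cell of O had 4459 against 3191 in K, 3846 in P_Q, 3085 in L and 4331 in M.

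Cells were grouped into 8 clusters over all 150 cells, and a cluster took a class name from its enriched markers. Cluster 3 was A-fibre mechanoreceptor-like, with Chodl, Tesc and Shox2 among its top genes. All 4 hairy cells of plate 2 in it were of day 4, with 2 of 4 cells in K and 2 of 15 in P_Q. None of the 16 day-5 cells was in an A-fibre-like cluster, a count that allows a share of up to 18.8% taking 3 cells as the limit (20.6% by the 95% Clopper-Pearson interval). In the day-4 cells the share was 21.1% (Clopper-Pearson interval 6.05% to 45.6%). These limits pool the cells of an age, so they cover counting error only and not the spread between litters. Cluster 8, C-fibre mechanoreceptor-like and led by Tafa4, held 25% of the cells in K and 26.7% in P_Q, against 60% in L, 42.9% in M and 50% in O. All 3 day-5 litters were above both day-4 litters, a difference of 25.1 percentage points, with means of 50.95% ± 8.61 (SD, n = 3 litters) and 25.8% ± 1.18 (n = 2 litters). The exact two-sided permutation test over litters gave p = 0.2 for both classes, which is the smallest value that 3 litters against 2 allow. Since the clusters were built from all genes of these cells, the counts describe the mix and test no gene. The A-fibre-like share differed by -31.7 percentage points between the ages, by -13.3 without litter K and by -50 without P_Q. At a coarser clustering (Leiden resolution 0.5) the A-fibre-like cells numbered 2 in K, 3 in P_Q, 0 in L, 1 in M and 1 in O, with overlap, and no cluster was C-fibre-like. No doublet caller was run.

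**Figure D1:**
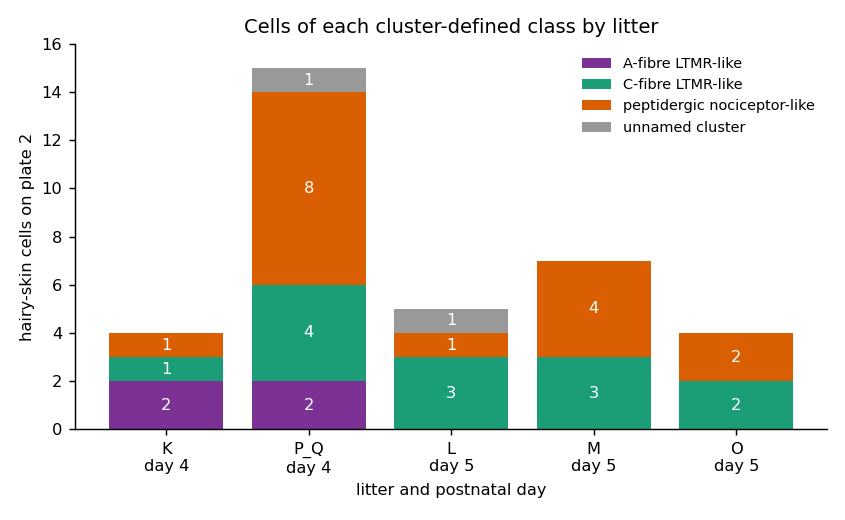
Number of hairy-skin cells on plate 2 in each cluster-defined class (colour, vertical axis) for each litter (horizontal axis). LTMR stands for low-threshold mechanoreceptor. The 4 A-fibre-like cells are in K and P_Q, and 8 of the 16 day-5 cells are C-fibre-like.

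Peptidergic nociceptor-like cells made up 42.4% ± 19.7 (SD, n = 3 litters) on day 5 and 39.2% ± 20.03 (n = 2 litters) on day 4, and the litters overlapped (exact permutation p = 1). This class joined clusters 1 and 5. Cluster 1 held 6 of its 9 day-4 cells and 3 of its 7 day-5 cells, and cluster 5 held the others. Cluster 5 had Tac1 and Calca among its top genes but also the collagens Col1a1 and Col3a1 and the myelin gene Mbp, genes of fibroblasts and Schwann cells. It was enriched for 6 peptidergic markers but also for 7 satellite glia, 7 Schwann cell and 6 fibroblast markers, and cluster 8 for 6 C-fibre and 6 fibroblast markers, so RNA of other cells was as marked in both as that of the class named. Of its 7 cells, 1 of P_Q and 1 of O had over 10% mitochondrial counts and Calca at 73.4 and 38.9 CPM, so their class rests on little. The remaining 2 cells, 1 of P_Q and 1 of L, were in cluster 2, which had as many peptidergic as non-peptidergic markers and stayed unnamed.

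Single markers were also counted per cell, with levels chosen after their values were seen. Nefh, Calb1, Shox2 and Tafa4 are among the markers that named the clusters, so these counts are no independent view of the mix. Nefh, the heavy neurofilament of large myelinated neurons, was at or over 1000 CPM in 3 of 4 cells of K, 4 of 15 of P_Q, 0 of 5 of L, 2 of 7 of M and 1 of 4 of O. The ages overlapped for Nefh. Both M cells with high Nefh, at 2962 and 3961 CPM, were in the peptidergic-like cluster 1 but had Calca, the gene of CGRP, at 9 and 3 CPM. Those 2 cells go against their class name, and cells with high Nefh were thus present on day 5 outside the A-fibre-like clusters.

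Calb1, the calcium buffer calbindin, and Shox2, a transcription factor of touch neurons, marked a narrower group. Calb1 was at or over 100 CPM in 2 cells of K and 3 of P_Q and in no day-5 cell. Shox2 was at or over 20 CPM in 2 cells of K and 3 of P_Q and again in no day-5 cell. The fifth such cell, of P_Q, was in the C-fibre-like cluster although its Tafa4 level was 38.6 CPM. Tafa4, a secreted protein of C-fibre mechanoreceptors, was at or over 100 CPM in 1 cell of K, 3 of P_Q, 3 of L, 3 of M and 2 of O, which gave 22.5% ± 3.54 of cells (SD, n = 2 litters) on day 4 and 50.95% ± 8.61 (n = 3 litters) on day 5. Litters of the 2 ages did not overlap for Calb1, Shox2 or Tafa4.

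Calca was at or over 1000 CPM in 1 cell of K, 7 of P_Q, 3 of L, 2 of M and 1 of O, and the ages overlapped. One of the L cells was in the C-fibre-like cluster and held both Tafa4 at 651 CPM and Calca at 3675 CPM. A-fibre-like cells of hairy skin were not missing from day 5 in the series as a whole: on plate 1, where all 10 hairy cells were of day 5, 5 cells were A-fibre-like. In those 5 cells the median was 375 CPM for Calb1 and 41.6 CPM for Shox2, and each gene was detected in all 5. Which neurons were picked on each plate was not tested.

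**Figure D2:**
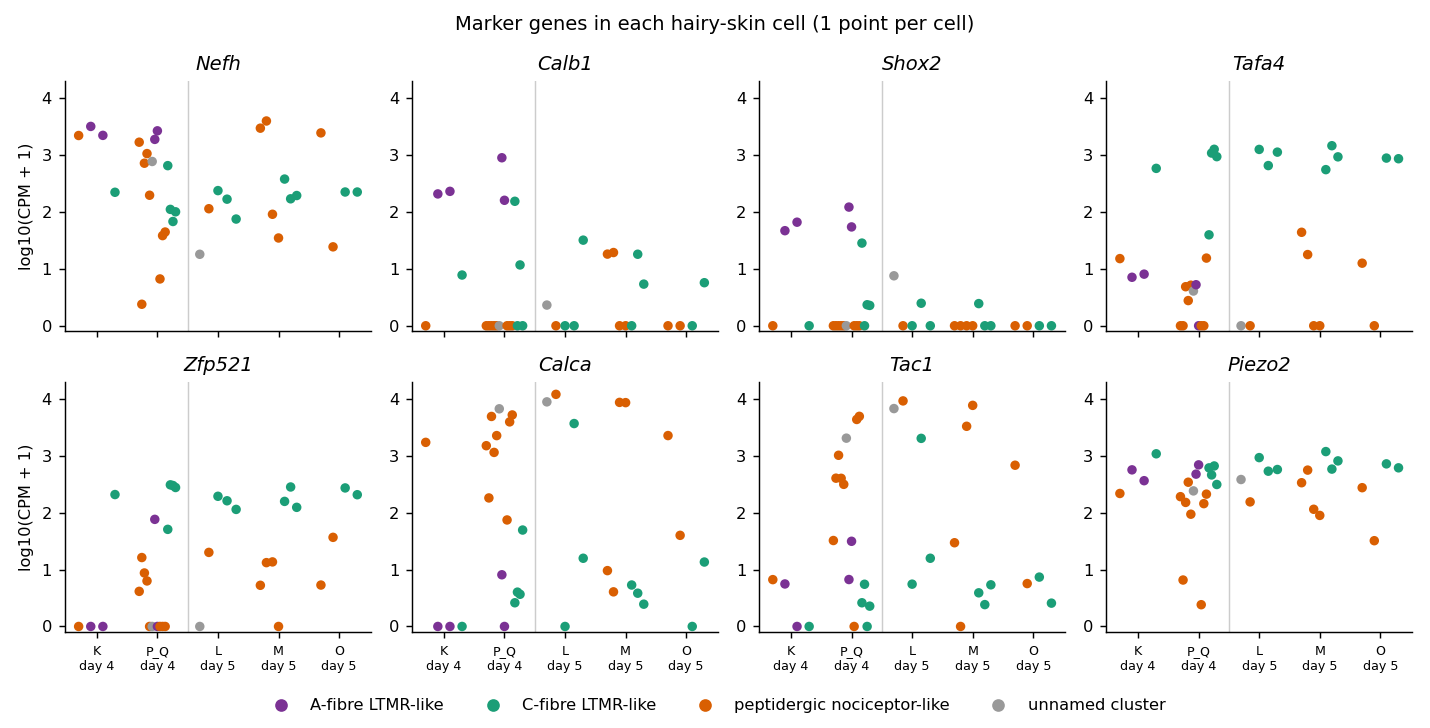
Level of 8 marker genes in each of the 35 cells (vertical axis, log10 of CPM + 1) by litter (horizontal axis), coloured by the class of the cell's cluster. Calb1 and Shox2 are high in cells of K and P_Q alone, Tafa4 is high in cells of all 5 litters, and Nefh is high in 2 cells of M that are coloured as peptidergic nociceptor-like.

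The litter sums were compared with edgeR's quasi-likelihood test and Benjamini-Hochberg adjustment over 13903 genes. At an adjusted p of 0.05, 0 genes (0%) were called, and the smallest adjusted p was 0.664. At an unadjusted p under 0.05, 534 genes (3.84%) were higher and 489 (3.52%) lower on day 5, 1023 in all and 388 when litter K was left out. In 1718 genes (12.4%) all 3 day-5 litters were above both day-4 litters, and in 1852 (13.3%) all were below, and these shares are the background against which gene groups are read. DESeq2 on the same sums called 70 genes, 41 higher and 29 lower, voomLmFit called 0, and edgeR without a filter on low counts called 320 of 27224. The median log2 change of all genes was 0.02. The genes below are the 10 with the smallest p in each direction, 20 in all. None passed edgeR's adjusted threshold, DESeq2 called 19 of them, and the litters of the 2 ages did not overlap in any of them. P-values measure only the spread between these 5 litters.

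Among the 10 with the smallest p on the higher side were 3 genes for potassium channels or their partners. Kcnf1, a silent potassium channel subunit on chromosome 12 (17172100 to 17176888, minus strand, mm10), was at 12.5 CPM in K and 14.7 in P_Q, against 50.1 in L, 44.8 in M and 41.8 in O. All 3 day-5 litters were about equally high. Its log2 change was 1.74 ± 0.30 (SE), with p = 0.664 after adjustment in edgeR. All 100% of its day-4 counts and 99.2% of its day-5 counts came from C-fibre-like cells, which were also more frequent in the day-5 litters. Within the C-fibre-like cells the log2 change was 0.75. It was 0.28, with overlap, once the P_Q cell of low Tafa4 and the P_Q cell of high mitochondrial share were left out of that class, an alternative chosen after the data had been seen.

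Kcnip2, a partner of fast inactivating potassium channels, had the same pattern. Its sums were 100.98 CPM in K, 97.3 in P_Q, 305 in L, 213 in M and 193 in O, a log2 change of 1.26 ± 0.26 (SE). C-fibre-like cells gave 92.2% of its day-4 and 93.5% of its day-5 counts, and within them the log2 change was 0.23, with overlapping litters. Pou4f2, a transcription factor of the Brn3 family, had a log2 change of 1.33 over all cells and 0.43 within C-fibre-like cells, which gave 93.6% of its day-4 counts. Kcnh6, a potassium channel of the ERG family, had 1.21 and 0.41. Litters were separate within the C-fibre-like cells for Kcnf1, Pou4f2 and Kcnh6, and without the 2 doubtful P_Q cells for Pou4f2 alone of these.

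C1ql4, a secreted C1q-like protein on chromosome 15 (99084086 to 99087817, minus strand), differed more within the class. Its sums were 7.9 CPM in K and 17.1 in P_Q, against 145.5 in L, 117.9 in M and 50.5 in O, a log2 change of 3.01 ± 0.55 (SE). Within C-fibre-like cells alone it was at 35.3 CPM in K and 60.9 in P_Q, against 251 in L, 273 in M and 97.5 in O, a log2 change of 2.06 ± 0.49 (SE, p = 0.0029 before and 0.933 after adjustment in edgeR). All 3 day-5 litters were higher in that comparison too, O the least. C1ql4 was detected in 4 of 5 day-4 and 8 of 8 day-5 C-fibre-like cells, and the K value there came from 1 cell. Without the 2 doubtful P_Q cells its log2 change was 1.45 ± 0.55 (SE) and the litters overlapped.

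Zbtb20, a zinc finger transcription factor on chromosome 16 (42875881 to 43642602, plus strand), had a positive log2 change in each set of cells tested. Over all hairy cells it was at 53.3 CPM in K and 97.4 in P_Q, against 300.5 in L, 223 in M and 225 in O, a log2 change of 1.72 ± 0.31 (SE). Within C-fibre-like cells the values were 21.8 and 48.6 CPM on day 4 against 109.9, 143.4 and 111.3 on day 5, a log2 change of 1.71 ± 0.39 (SE). Within peptidergic-like cells they were 155.5 and 150.3 CPM against 730.3, 288 and 368, a log2 change of 1.59 ± 0.47 (SE). The litters of the 2 ages were separate in both classes. With the doubtful cells left out (2 C-fibre-like, and 5 peptidergic-like with Calca under 100 CPM or over 10% mitochondrial counts) the log2 change was 1.045 in the C-fibre-like class, still without overlap, and 1.62 in the peptidergic-like class, with overlap. Over the alternatives for all hairy cells it ran from 0.96 to 2.66. In glabrous cells of the same litters its log2 change was 1.16 ± 0.60 (SE), also without overlap, and the test of a difference between the skins gave 0.82 ± 0.66 (SE, adjusted p = 1 in edgeR).

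The other 4 genes on the higher side differed in where they were expressed. Pls3, an actin-bundling protein, had a log2 change of 1.09 over all cells, 0.33 within C-fibre-like cells with overlapping litters and 1.62 within peptidergic-like cells without overlap. Mal2, a membrane trafficking protein, had 2.61 over all cells, 1.3 within C-fibre-like cells without overlap and 3.24 within peptidergic-like cells with overlap. Dgkg, a diacylglycerol kinase, had 1.67 over all cells and 0.56 and 2.01 within the classes, with overlap in both. Nhsl2 had 2.22 over all cells but 0.35 within C-fibre-like cells, and 34.2% of its day-5 counts came from 1 cell, the L cell of cluster 2. In glabrous cells Nhsl2 was lower on day 5 (log2 change -2.69), and the difference between the skins was 5.03 (p = 0.002 before adjustment and 1 after it, edgeR).

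**Figure D3:**
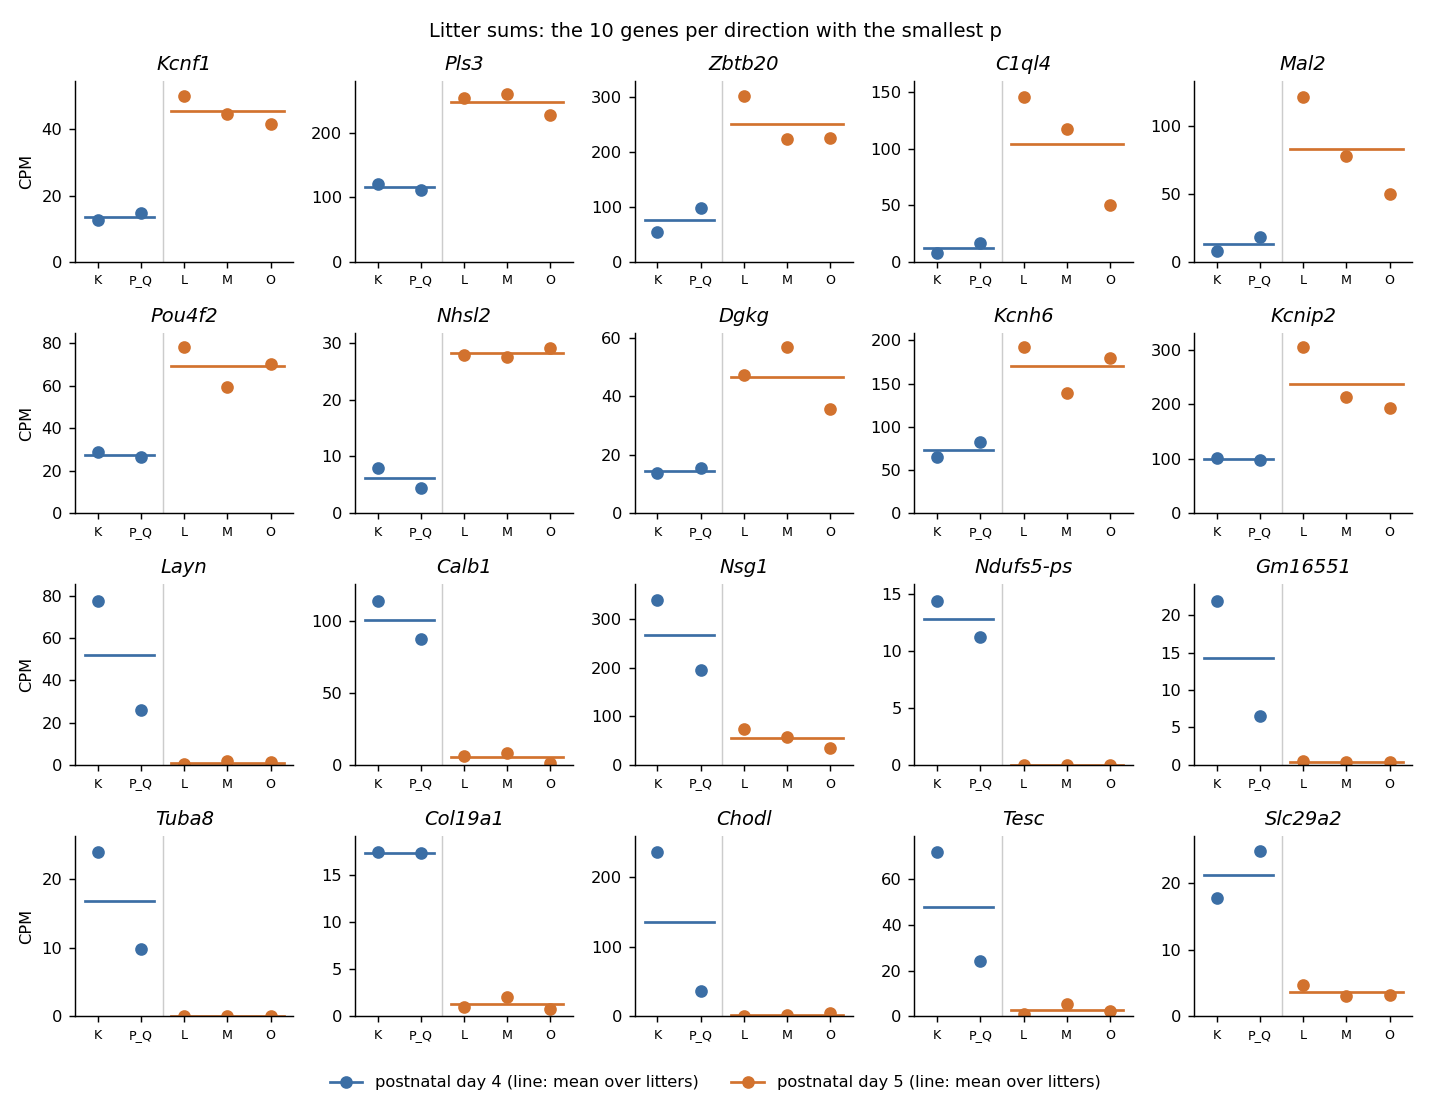
CPM of the litter sums (vertical axis, linear, from 0) for the 10 genes per direction with the smallest p, by litter (horizontal axis). Points are litters and lines are means over the litters of an age. The 2 ages are separate for all 20 genes, which is part of having a small p.

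The lower side was led by genes of the A-fibre-like cells. Calb1, on chromosome 4 (15881264 to 15908064, plus strand), was at 113.8 CPM in K and 87.7 in P_Q, against 6.2 in L, 8.12 in M and 1.19 in O, a log2 change of -4.20 ± 0.57 (SE). Of its day-4 counts 90.6% came from the 4 A-fibre-like cells. Chodl, a membrane protein with a C-type lectin domain on chromosome 16 (78930948 to 78951733, plus strand), was at 236 CPM in K, 35.9 in P_Q, 0 in L, 1.67 in M and 4.37 in O, a log2 change of -6.21 ± 1.11 (SE). Its day-4 counts came to 99.1% from the A-fibre-like cells. Among the 5 A-fibre-like hairy cells of plate 1, which were of day 5, Chodl was detected in 3, with a highest level of 206 CPM.

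Layn, a hyaluronan receptor, was at 77.5 CPM in K and 26.1 in P_Q and at 0.52 to 1.67 in the day-5 litters, a log2 change of -5.46 ± 0.67 (SE). The A-fibre-like cells gave 91.4% of its day-4 counts. Tuba8, an alpha tubulin, had 157 counts on day 4 and 0 on day 5, which made it at least 47.8-fold lower (taking 3 counts over all day-5 litters as the limit). It was detected in all 5 A-fibre-like cells of plate 1 at a median of 50.8 CPM. Tesc, a calcium-binding regulator of proton exchange, had a log2 change of -3.93, Gm16551, a noncoding transcript, -4.90, and Nsg1, an endosomal protein of neurons, -2.26.

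With the 4 A-fibre-like cells left out, an alternative chosen after the data had been seen, the log2 change of Calb1 was -0.64, of Tesc -0.78, of Nsg1 -0.60 and of Layn -2.37. Chodl, Tuba8, Col19a1 and Gm16551 then no longer passed the filter on low counts. Over the 16 of these 20 genes still tested the median size of the log2 change was 1.17, against 2.57 for all 20 with every cell in. The medians cover different genes, and those no longer tested include genes with large changes, so their difference is not a change in the same genes. All 16 kept their sign. With the cluster as a term of the model, Calb1 (0.02), Tesc (0.23) and Chodl (0.35) changed sign. All 4 A-fibre-like cells were of day 4, so both alternatives take them out of the age comparison. Calb1 was among the markers that named their cluster, and Chodl and Tesc were among its top genes. Smaller changes of these genes there thus follow from the choice of cells and are no separate result.

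Slc29a2, an equilibrative nucleoside transporter, was the gene of the lower side that differed in both classes. It was at 17.8 CPM in K and 24.8 in P_Q, against 4.65 in L, 3.12 in M and 3.18 in O, a log2 change of -2.54 ± 0.50 (SE). Its log2 change was -2.40 within C-fibre-like and -1.88 within peptidergic-like cells, with separate litters in both, and -2.03 within C-fibre-like cells without the 2 doubtful ones. It did not pass the filter in the trimmed peptidergic-like class, and its log2 change was -2.16 over all cells without the A-fibre-like cells. Ndufs5-ps, a copy of the respiratory chain gene Ndufs5, had no count on day 5 and was at 14.4 CPM in K and 11.2 in P_Q (at least 44.4-fold lower). It was detected in 5 of 5 C-fibre-like, 2 of 4 A-fibre-like and 3 of 9 peptidergic-like cells of day 4. Reads of such a copy can be shared with the parent gene, so this value is uncertain.

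**Figure D4:**
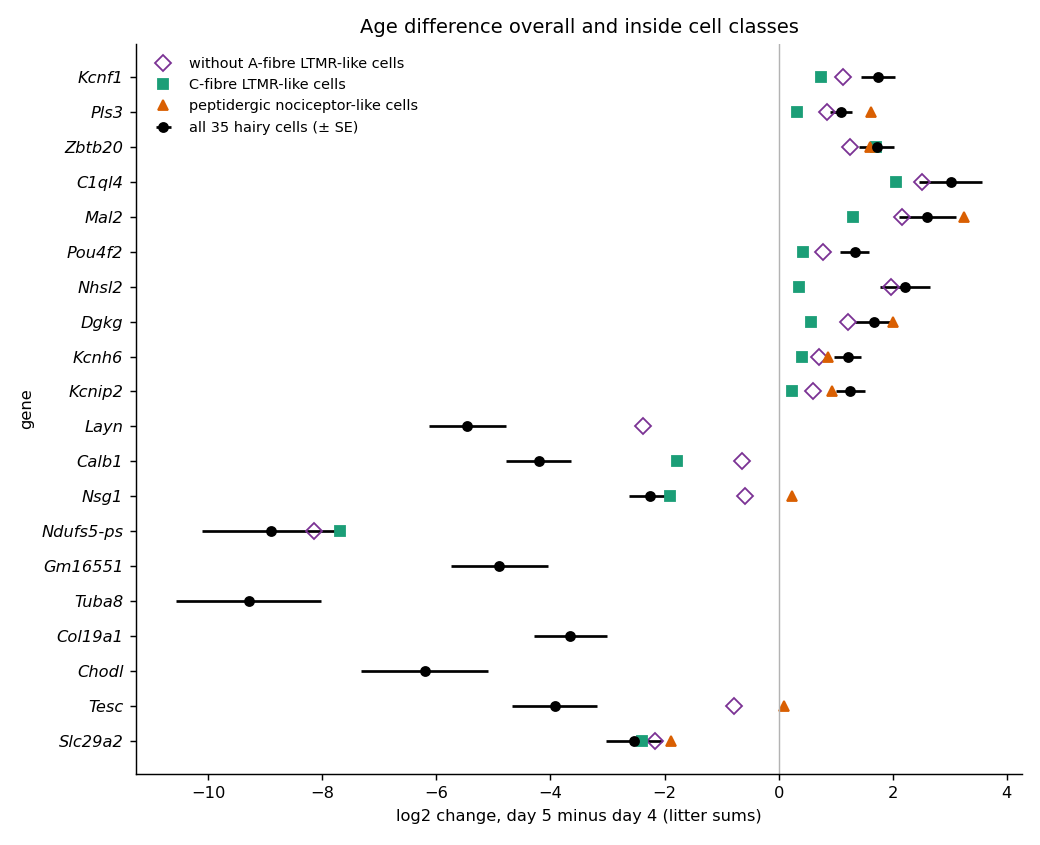
Log2 change between the ages (horizontal axis, day 5 minus day 4) for the same 20 genes (vertical axis) over all 35 cells with its SE, without the 4 A-fibre-like cells, and within each of the classes tested. A missing symbol means that the gene did not pass the filter on low counts there. Zbtb20 lies above 0 and Slc29a2 below 0 in every set shown, whereas Calb1, Nsg1 and Tesc lie nearer to 0 without the A-fibre-like cells.

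The class markers were then compared over the litter sums. Of 12 A-fibre markers 10 were negative, with a median log2 change of -0.83, and 5 were lower without overlap (background 13.3%), led by Calb1, Shox2, Mafa and Cadps2. Without the A-fibre-like cells the median of the 10 still tested was -0.06. Of 6 C-fibre markers tested all 6 were positive with a median of 0.88, and 4 were higher without overlap (background 12.4%). Tafa4 was at 136.9 CPM in K and 254 in P_Q, against 614 in L, 433 in M and 441 in O, a log2 change of 1.34 ± 0.32 (SE, adjusted p = 0.664 in edgeR and 0.021 in DESeq2). Without the A-fibre-like cells 1 of the 6 was higher without overlap (median 0.37), and in library 5 alone also 1 (median 0.45). Within C-fibre-like cells the list had a median of 0.06 over 7 genes, and none was separate between the ages. Both classes were named by their enrichment for these markers. Values within the C-fibre-like class, or without the A-fibre-like cells, were thus largely set by the naming and do not test the markers.

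Nefh, Ret, Ntrk2 and Ntrk3 of the A-fibre list, and the channel Piezo2, did not separate the ages. Nefh was at 2018 CPM in K, 677 in P_Q, 123.2 in L, 1093 in M and 791 in O, a log2 change of -1.01 ± 0.80 (SE), and the litters overlapped. Piezo2 had a log2 change of 0.19 ± 0.26, Ret, the GDNF family receptor, -0.10 ± 0.63, Ntrk2, the BDNF receptor, -0.15 ± 0.67, and Ntrk3, the neurotrophin-3 receptor, 0.24 ± 0.53 (all SE). Ret, Ntrk2, Ntrk3 and Piezo2 changed sign under several alternatives. Th, the enzyme of catecholamine synthesis that marks mature C-fibre mechanoreceptors, was between 1.89 and 8.53 CPM in every litter, with overlap. Zfp521, a transcription factor of that class, was higher without overlap (0.74 ± 0.31), while Pvalb, the calcium buffer parvalbumin, was lower without overlap (-3.02 ± 0.66). Pvalb was listed as a proprioceptor marker but was also enriched in the A-fibre-like cluster 3. Uts2b did not pass the filter on low counts.

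Genes of peptidergic nociceptors varied widely among the litters of an age. Calca was at 459.5 CPM in K, 1665 in P_Q, 4828 in L, 2095 in M and 634 in O, a log2 change of 1.24 ± 0.85 (SE). Tac1, the gene of substance P, was at 2.65 CPM in K, 872 in P_Q, 3556 in L, 1290 in M and 190.1 in O, and Trpv1, the capsaicin receptor, was at 0.38, 26.2, 279, 114.8 and 4.37 CPM in the same order. Litter L was the highest for all 3 genes, and litter O lay between both day-4 litters for all 3. Mrgprd, a receptor of non-peptidergic nociceptors, had a log2 change of 1.37 ± 1.01 (SE) with overlap. Of 8 peptidergic markers 7 were positive with a median of 1.58. Of 9 non-peptidergic markers 8 were positive with a median of 0.97, and 2, Grik1 and Scn11a, were higher without overlap, although both overlapped within the C-fibre-like cells. Of 4 proprioceptor markers 3 were lower without overlap (median -2.21, background 13.3%), and 1 was once the A-fibre-like cells were left out (median 0.09). Pvalb, Etv1 and Spp1 of this list were enriched in the A-fibre-like cluster 3, so the list is no separate sign of proprioceptors.

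Of the 28 gene lists, genes of the respiratory chain encoded in the nucleus had the largest share of genes separate between the ages. All 24 of 24 had a negative log2 change (-0.77 to -0.12, median -0.47, against 0.02 for all genes). In 20 of them (background 13.3%) all 3 day-5 litters were below both day-4 litters, and 12 had an unadjusted p under 0.05 (background 3.52%). None passed edgeR's adjusted threshold. Atp5c1, a subunit of ATP synthase, was at 498 CPM in K and 435 in P_Q, against 269.8 in L, 309.9 in M and 280.3 in O, a log2 change of -0.70 ± 0.18 (SE). Cox5a, a subunit of cytochrome c oxidase, was at 452 and 356 CPM against 195, 235 and 283, a log2 change of -0.77 ± 0.23 (SE). The day-4 litter with the lower level was still above every day-5 litter in both genes.

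The same genes were examined within the classes, which come from the same litters. Within peptidergic-like cells 20 of 24 were negative with a median of -0.35, and 13 were lower without overlap (background 9.44%), none with an unadjusted p under 0.05. Those cells include both M cells of high Nefh and low Calca. With the 5 doubtful cells left out 21 of 24 were negative, and 9 were lower without overlap (1189 of all 10053 genes were). Within C-fibre-like cells 21 of 24 were negative with a median of -0.30, and 4 were lower without overlap (background 9.81%). Without the 2 doubtful P_Q cells 15 of 24 were negative with a median of -0.06, 4 were lower and 2 higher without overlap. These counts were not set against the share of all genes in that fit. In glabrous cells the median was -0.24, and 5 of 24 were lower without overlap (background 12.2%). Cycs, cytochrome c, was lower without overlap in both classes (-0.55 and -0.54) and, without the doubtful cells, in the peptidergic-like class alone (-0.20 and -0.72). Over all hairy cells but the A-fibre-like ones all 24 were negative, and 16 were lower without overlap, as were 1434 of all 13842 genes. There 2 had an unadjusted p under 0.05, as did 230 of all genes on the lower side. Without the 4 cells of high mitochondrial share 21 were lower without overlap (2044 of all 13849 genes), and with raw totals in place of TMM 20 (1573 of 13903). The 13 genes encoded by mitochondrial DNA had a median of -0.05, and all 13 overlapped between the ages. Without the 4 cells of high mitochondrial share all 13 were positive, with a median of 0.16 and 0 separate. In glabrous cells their median was 1.48.

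Genes of glycolysis and protein folding were more mixed, and none was called. Of 17 glycolysis genes 14 were negative with a median of -0.22, and 8 were lower without overlap (background 13.3%), among them Pfkp (-0.61), Eno2 (-0.67) and Aldoc (-1.12). Without the A-fibre-like cells 5 were lower without overlap (1434 of all 13842 genes). Within C-fibre-like cells 1 was, below the 9.81% of all genes there, and 2 were higher (background 12.2%). Within peptidergic-like cells 6 of 17 were lower without overlap (background 9.44%), with a median of -0.32. Of 14 heat shock genes 11 were negative with a median of -0.27, and 4 were lower without overlap (background 13.3%). Within peptidergic-like cells 5 of 13 were lower without overlap (background 9.44%) and 1 higher. Within C-fibre-like cells 2 of 14 were lower and 2 higher. Hspe1, the mitochondrial co-chaperone, was at 91.9 CPM in K and 89.2 in P_Q, against 50.9 in L, 52.5 in M and 61.6 in O, a log2 change of -0.72 ± 0.22 (SE). It was also lower without overlap in C-fibre-like, peptidergic-like and glabrous cells (-0.62, -0.59 and -0.56), but overlapped in peptidergic-like cells without the doubtful ones (-0.46). Of 25 ribosomal protein genes 18 were negative, the median was -0.11 and 3 were lower without overlap, a share near the background. Within C-fibre-like cells 7 of 25 were lower without overlap (background 9.81%), with a median of -0.32. Within peptidergic-like cells 1 of 25 was (background 9.44%), with a median of -0.21.

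**Figure D5:**
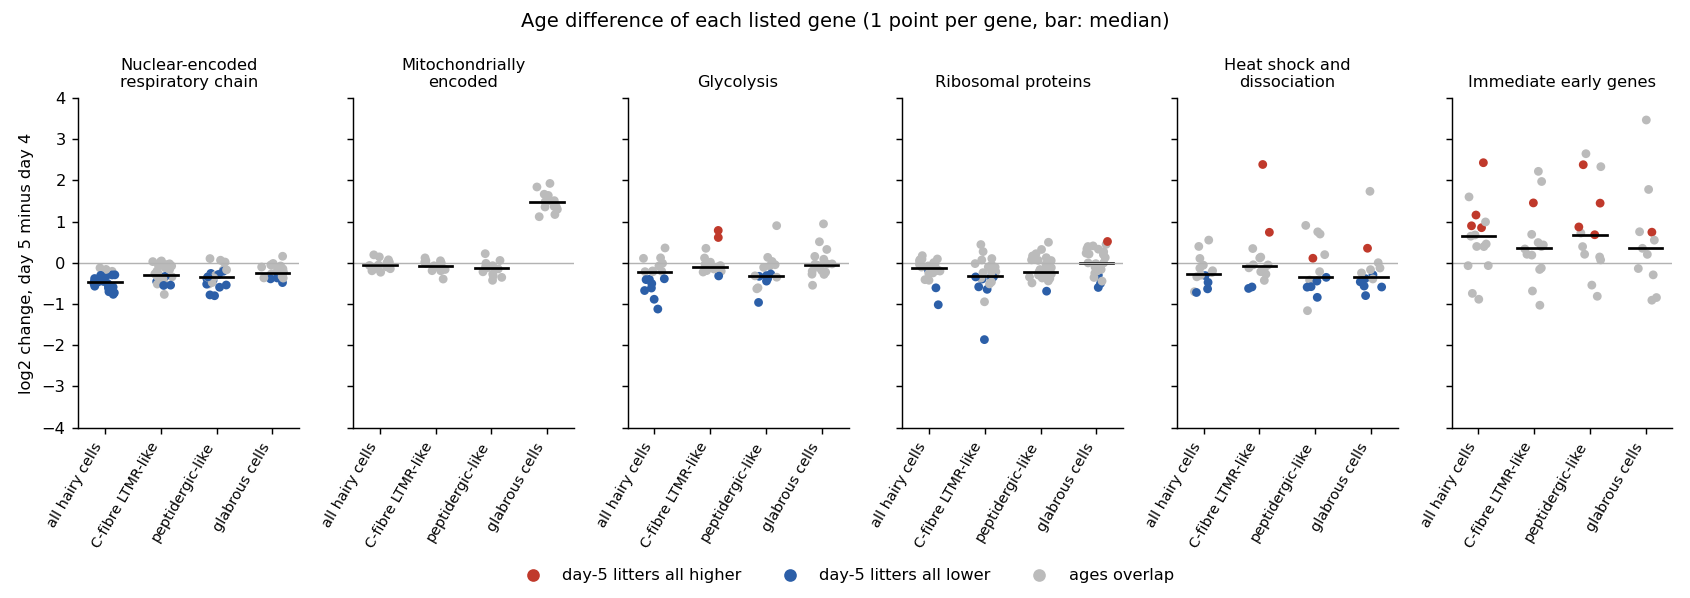
Log2 change between the ages (vertical axis, day 5 minus day 4) of each gene in 6 lists, for all hairy cells, each class and the glabrous cells of the same litters (horizontal axis). Each point is a gene, coloured by whether the day-5 litters were all higher or all lower, and bars are medians. The nuclear-encoded respiratory chain lies below 0 for all 24 genes over all hairy cells, and the mitochondrially encoded genes lie near 0 there.

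Axonal and growth genes were mixed. Gap43, a growth cone protein of elongating axons, was at 946 CPM in K and 901 in P_Q, against 804 in L, 559 in M and 591 in O, a log2 change of -0.50 ± 0.22 (SE). It was lower without overlap in C-fibre-like (-0.71), peptidergic-like (-0.85) and glabrous cells (-1.42) as well. Of 15 neurofilament and axonal cytoskeleton genes 12 were negative with a median of -0.31. In this list 2 were lower without overlap, a share near the background of 13.3%. Of 14 genes of the node of Ranvier and initial segment 12 were negative with a median of -0.62, with Kcnq3 at -3.03 and Cntn1 at -1.03. Here too 2 were lower without overlap, near the background. Without the A-fibre-like cells the median of that list was -0.19.

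Transcription factors of sensory neurons were on both sides, with 8 of 22 lower without overlap (background 13.3%) and 3 higher (background 12.4%). Shox2 (-5.07), Etv1 (-1.79) and Mafa were among those lower, and Mafa had no count on day 5 (at least 30.1-fold lower). Without the A-fibre-like cells 4 of 20 were lower without overlap, against 1434 of all 13842 genes. Of 15 immediate early genes, which neurons switch on within minutes of activity or stress, 11 were positive with a median of 0.65. In this list 4 were higher without overlap (background 12.4%). Within peptidergic-like cells 4 of 13 were (background 9.22%), and within C-fibre-like cells 1 of 14 was (background 12.2%). Egr1 was at 2.27 CPM in K and 4.37 in P_Q, against 14.7 in L, 18.7 in M and 22.7 in O, a log2 change of 2.43 ± 0.55 (SE). Fos, Jund and Ier2 had log2 changes of 1.16, 0.85 and 0.90. Without the 4 cells of high mitochondrial share 3 of the 15 were higher without overlap and 1 lower. Among all 13849 genes there 1857 were higher and 2044 lower without overlap.

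Receptors for growth signals were among the smaller groups. Of 11 IGF genes 8 were positive with a median of 0.70, and 4 were higher without overlap (background 12.4%), with Igfbp2 at 0.70, Igf1 at 1.47 and Insr, the insulin receptor, at 0.99. Within the classes the medians were 0.03 and 0.12. Here 2 of 11 genes were higher without overlap in C-fibre-like cells (background 12.2%) and 1 of 11 in peptidergic-like cells (background 9.22%). Without the doubtful cells these medians were 1.06 and 0.73, with 2 of 11 higher without overlap in each class. Those 2 counts were not set against the share of all genes in the same fits. Lifr, the receptor of leukaemia inhibitory factor, was at 116.1 CPM in K and 111.2 in P_Q, against 215 in L, 192 in M and 218 in O, a log2 change of 0.87 ± 0.19 (SE). Its signalling partner Il6st had 0.79 ± 0.20 (SE). Both were higher without overlap within peptidergic-like cells (1.63 and 0.90) and overlapped within C-fibre-like cells (0.38 and 0.12). Ngfr, the low-affinity neurotrophin receptor, was lower without overlap (-1.28). Of 19 interferon response genes 1 was higher (background 12.4%) and 2 were lower without overlap (background 13.3%). Within C-fibre-like cells all 17 tested were positive with a median of 1.14, but 1 was higher without overlap (background 12.2%). In the same C-fibre-like sums markers of other cells were higher on balance too, with medians of 2.03 for macrophages and 1.40 for satellite glia. Within peptidergic-like cells 5 of 18 interferon response genes were lower without overlap (background 9.44%), and the median was -0.69.

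Synaptic and channel lists had separate genes on both sides, against 12.4% higher and 13.3% lower without overlap among all genes. Of 23 presynaptic genes 4 were higher and 4 lower without overlap, with Syt9 at 1.22 and Slc17a7, the vesicular glutamate transporter VGLUT1, at -1.92. Of 23 potassium channel genes 3 were higher and 3 lower without overlap, and of 13 mechanically gated and touch channel genes 2 and 1. Of 14 calcium channel genes 11 were positive with a median of 0.42, and 3 were higher without overlap, led by Cacna1b (0.90), against a background of 12.4%. Of 16 calcium buffers and S100 genes 6 were lower without overlap (background 13.3%), including Calm2 (-0.58) and S100b (-1.28). Of 11 sodium channel genes 3 were higher without overlap, among them the nociceptor channels Scn11a (1.18) and Scn10a (0.50), and 1 lower. Without the A-fibre-like cells, and within each class, 0 of the 11 were higher without overlap.

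The remaining lists are given by their counts, to be read against 12.4% higher and 13.3% lower without overlap among all genes. Of 14 HCN and TRP channel genes 11 were positive and 0 separate, and of 7 neuropeptide genes 6 were positive and 0 separate. Of 26 cadherins and contactins 4 were higher and 6 lower without overlap, of 21 Eph, semaphorin, netrin and slit receptors 3 and 3, of 19 genes of glutamate, GABA and chloride transport 4 and 2, and of 14 purinergic, opioid and Mrgpr receptors 3 and 3. Of 17 cholesterol synthesis genes 3 were higher and 1 lower, with Lss, lanosterol synthase, at 1.19. Of 24 BMP and TGF-beta genes 17 were positive and 2 higher without overlap, and of 11 Hox genes 2 were lower.

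Within the classes the same test was made on fewer cells, with 1 to 4 C-fibre-like and 1 to 8 peptidergic-like cells per litter. In C-fibre-like cells the 12147 genes tested held 0 called by edgeR and 628 with p under 0.05 before adjustment, and DESeq2 called 24. Litters were separate for 1477 genes on the higher side (12.2%) and 1192 on the lower side (9.81%). In peptidergic-like cells the 11350 tested held 0 called by edgeR and 282 with p under 0.05 before adjustment, and DESeq2 called 3. Here 1047 (9.22%) and 1071 (9.44%) were separate. Of the 10758 genes tested in both classes, those higher without overlap in both made up 9.98% of the 1283 C-fibre-like and 12.9% of the 994 peptidergic-like genes of that direction. Those lower in both numbered 162 (15.1% and 15.7%). The classes come from the same litters and are not independent.

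Beyond Zbtb20, the genes separate in both classes with the smallest p (taking the larger p of both classes) were Rsrp1, Rgs4, St6gal1 and Dab2ip, named here after their values were seen. All 4 were also separate in both classes without the doubtful cells. Rsrp1, an arginine and serine rich protein, had log2 changes of 1.31 within C-fibre-like and 1.00 within peptidergic-like cells. Rgs4, a brake on G protein signalling, was at 1187 and 1013 CPM against 666, 497 and 474 within C-fibre-like cells, and at 745 and 485 CPM against 82.9, 277 and 242 within peptidergic-like cells. St6gal1, a sialyltransferase, had 1.77 and 1.25, and Dab2ip, a Ras GTPase-activating protein, 1.49 and 2.57. Gm8399, a processed pseudogene whose reads may be shared with its parent gene, had the smallest adjusted p within C-fibre-like cells (0.123, edgeR with Benjamini-Hochberg adjustment), at 57.1 and 69.4 CPM on day 4 against 0.45, 0.97 and 1.54 on day 5.

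The glabrous cells of the same litters on plate 2, 19 in all, were tested in the same way. Of 12367 genes edgeR called 0 and 432 had p under 0.05 before adjustment, and DESeq2 called 27. Separate litters were found for 1159 genes on the higher side (9.37%) and 1513 on the lower side (12.2%). Of 12199 genes tested in both skins 275 were higher without overlap in both (19.1% of the hairy and 24% of the glabrous genes of that direction), and 427 were lower in both (24.6% and 28.5%). The hairy and glabrous cells share litters, plate and library. The test of a difference in the age effect between the skins called 0 of 14220 genes in edgeR, and 204 had p under 0.05 before adjustment. Litter M gave 1 glabrous cell.

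RNA of other cell types differed between litters and in part between the ages, and its part in the results was not tested. Of 8 myelinating Schwann cell markers 7 were positive with a median of 0.70, all 8 overlapped, and O was the highest for Mbp, with 9123 CPM against 819 in K, 1950 in P_Q, 1044 in L and 2342 in M. Of 6 fibroblast markers 5 were positive (median 1.22) and of 8 satellite glia markers 6 (median 0.11), all with overlap. Within C-fibre-like cells the medians were 1.06 for Schwann cell markers, with 0 of 8 separate, and 1.40 for satellite glia markers. Of the satellite glia markers 3 of 8 were higher (background 12.2%) and 1 lower without overlap (background 9.81%). Without the 2 doubtful P_Q cells the Schwann cell median was 2.03, with 3 of 7 higher without overlap. That count was not set against the share of all genes in the same fit. Of 6 macrophage markers 6 were positive with a median of 1.58, and 3, Lyz2, Aif1 and C1qa, were higher without overlap (background 12.4%). Within C-fibre-like cells 2 of 6 were (background 12.2%). The mean summed CPM of the 8 listed macrophage markers did overlap. It was 5.68 in K, 46.2 in P_Q, 161.4 in L, 41.1 in M and 38.9 in O, and the median cell of L had 23.6. Lyz2 was at 1.51 and 1.98 CPM on day 4 and 32.3, 10.8 and 7.56 on day 5. The 3 red blood cell markers tested were all negative, with P_Q the highest. The mean summed CPM of endothelium markers was 57.1 in K and 80.4 in P_Q, against 47.9 in L, 47.4 in M and 41.6 in O, without overlap. The fibroblast summed CPM ran from 225 to 1340 in the day-4 litters and from 556 to 2643 in the day-5 litters.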

How the data were processed

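Salmon estimated counts (expected counts) per gene and cell, which the authors deposited as whole numbers, were used for the 35 cells; FastQC, cutadapt, Salmon and mm10 come from the submitters' processing notes, without versions. The sources used here give neither the annotation nor whether counts were scaled for transcript length. Positions are from GENCODE for mm10.

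Counts were summed per litter and tested with edgeR 4.0.16 (R 4.3.3; TMM, filterByExpr, quasi-likelihood F-test, Benjamini-Hochberg adjusted p 0.05). The SE was taken as the log2 change over the root of the F statistic. CPM of sums use TMM-scaled totals, CPM of cells raw totals. DESeq2 1.42.0 and limma 3.58.1 gave alternatives. All 150 cells were clustered with scanpy 1.11.5 (2000 variable genes, 20 components, 10 neighbours, Leiden resolution 1); a name needed 3 enriched markers and 1 more than any other neuron class had, set after a first look (with 2, cluster 8 stayed unnamed). Glial, fibroblast and other such markers were left out of this rule. Named genes were the 10 smallest p per direction, 14 class markers and up to 4 per list. The cells, the 28 gene lists and the 13 marker lists were chosen with earlier results of these data known. Alternatives varied tools, scaling, filters, cells and litters; leaving out A-fibre-like or high-mitochondrial cells, leaving doubtful cells out of a class, and counting single markers were added after the data were seen. Shares were compared with exact permutation tests over litters. The procedure was tested on simulated data. No 2 cells had identical counts.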

Additional observations from a re-analysis of the deposited data

How the results depend on the processing

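No paired analysis was possible because each litter belongs to 1 age and replicate numbers only name samples. In hairy cells, edgeR's 0 called genes stayed 0 in 15 alternatives and became 70 with DESeq2, 320 without the filter on low counts and 1 with the cluster in the model; leaving out a litter gave 0 to 0. In glabrous cells 0 became 27 with DESeq2 and 408 without the filter (0 to 0 when a litter was left out), and within the classes 24 (C-fibre-like) and 3 (peptidergic-like) with DESeq2. The cause was not tested. Depth limits what single cells show: Tuba8 and Mafa rest on few counts. With the cluster in the model the log2 change was 0.023 for Calb1, 0.35 for Chodl, 0.23 for Tesc, 0.19 for Nefh, -1.58 for Calca, -0.39 for Tac1, -0.061 for Ntrk3 and 1.01 for Ret. Cluster 3 held day-4 cells alone among the hairy cells of plate 2, so with its term those cells add nothing to the age difference.

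The sign also turned for genes without a clear difference. Ret gave 0.12 with voomLmFit, 0.48 with means over cells, 0.18 without C-fibre-like and 0.59 without A-fibre-like cells, and ranged from -0.74 to 1.03 without single litters. Ntrk2 gave 0.64 with means over cells and 0.25 without A-fibre-like cells (-0.86 to 0.51 without single litters), Ntrk3 -0.22 and -0.29 (-0.38 to 0.74). Piezo2 gave -0.21 in library 5 cells and -0.35 without C-fibre-like cells (-0.14 to 0.60 without single litters), and Th -0.13 to 1.45 without single litters. The peptidergic-like share, 3.21 percentage points higher on day 5, was 12.7 lower (-12.7) at Leiden resolution 0.5 and -0.67 without cells of high mitochondrial share, and ran from -11.0 to 17.4 without single litters.

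Library measures turned sign too. Without single litters the difference, day 5 minus day 4, ran from -11796 to 48345 for total counts, from -201 to 960.4 for detected genes and from -2.48 to 2.79 for the mitochondrial percent. In summed CPM it ran from -1834 to 168 for A-fibre markers, from -4.22 to 8.29 for cold-sensing markers and from -711 to 1444 for satellite glia markers.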
